A study of Homo sapiens with 4 samples.

Results

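Amino acids cross membranes through solute carriers, and 58 genes of 7 carrier families (SLC1, SLC3, SLC6, SLC7, SLC36, SLC38 and SLC43) are described here, of 20322 genes in the deposited table. They were taken by gene symbol, and the families were chosen with earlier results of these data known. The creatine carrier SLC6A8 was left out, and the SLC6 members that carry neurotransmitters, betaine or taurine came in with their family. RNA was sequenced from HT-29 cells, an established line from a human colorectal tumour, in 2 libraries of each of 2 groups. In both groups IMP1 (gene IGF2BP1), an RNA-binding protein of fetal tissue and tumours, had been targeted by CRISPR/Cas9. The group called null carried an empty PiggyBac vector (PB*-empty), and the group called IMP1-OE carried PB*-FLAG-IMP1-short UTR, a PiggyBac vector for FLAG-tagged IMP1. All cells grew in puromycin, and the labels give a mouse liver metastasis as the tumour origin in both groups. Whether replicates were clones or parallel cultures is not stated in the labels, so p-values measure only the spread between these libraries, which may be technical.

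These carriers set how fast a cell takes up glutamine, serine, leucine, arginine and cystine. The SLC1 and SLC38 proteins bring in neutral amino acids or glutamate with sodium. SLC7 light chains such as SLC7A5 and SLC7A11 work as exchangers bound to the heavy chain SLC3A2, and the cationic SLC7 carriers work alone. Cells that lack amino acids activate the transcription factor ATF4, which binds amino acid response elements in DNA and raises several carrier genes together with enzymes of serine and asparagine synthesis. In the gut, SLC6A20 and SLC6A19 sit on the brush border and absorb proline and other neutral amino acids.

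Library totals ran from 9343429 to 10594813 estimated counts, and the members took 0.361% to 0.402% of them. IGF2BP1 had 37 and 16 counts in null and 71 and 112 in IMP1-OE, an order that follows the labels, with an edgeR adjusted p of 0.453. The epithelial markers EPCAM, CDH1, KRT8, KRT18, KRT19, KRT20, VIL1 and LGALS4 were high in all libraries, but the intestinal markers CDX1, CDX2 and GPA33 reached more than 4 counts only in null replicate 1 (9, 47 and 60 counts). Of the hepatocyte markers, ALB, APOA1 and CYP3A4 were at 0 in all 4 libraries, and CD3E of the leukocyte markers was as well. The summed levels were 228 to 732 CPM (counts scaled to a common library size) for 6 hepatocyte markers, nearly all SERPINA1, 1394 to 2815 for 4 leukocyte markers, nearly all LYZ, 1.52 to 10.8 for 5 fibroblast markers and 2.35 to 4.09 for 3 endothelial markers. Null replicate 2 stood apart in interferon-stimulated genes: 35 of 36 tested lay above their level in null replicate 1, the median log2 difference being 2.88. For IMP1-OE against null all 36 had a negative log2 fold change (median -2.38), with 0 called by edgeR, 28 at an unadjusted p under 0.05 and 4 called in the authors' deposited table. Without null replicate 2, 26 of the 36 had a negative log2 fold change, with a median of -0.28 and 5 at an unadjusted p under 0.05. Values without a library are therefore given beside the carriers described in full.

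Of the 58 carriers, 26 passed the low-count filter (at least about 10 counts in 2 libraries) and were tested. The tested members were 4 of 7 in SLC1, 1 of 2 in SLC3, 3 of 18 in SLC6, 6 of 13 in SLC7, 2 of 4 in SLC36, 8 of 11 in SLC38 and 2 of 3 in SLC43. No library held more than 25 counts of any of the 32 untested members. SLC1A6, SLC3A1, SLC6A13, SLC6A15, SLC7A3 and SLC7A13 had 0 counts in all 4 libraries, where a count of 0 allows up to 3 counts, or 0.283 to 0.321 CPM of a library's total. SLC3A1 is the heavy chain of the kidney and gut cystine carrier, and its light chain SLC7A9 had 2 counts in null replicate 2 and 0 elsewhere. The brush border carrier SLC6A19 had 0 and 5 counts in null and 0 and 1 in IMP1-OE. The highest untested counts, 25 for SLC6A18 in null replicate 1 and 23 for SLC6A16 in IMP1-OE replicate 2, were each from 1 library, with at most 7 and 4 counts in the other libraries.

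Levels between genes were compared per length, as TMM-scaled CPM per kb of effective transcript length. SLC1A5, the main glutamine exchanger of proliferating cells, stood at 376 ± 104 CPM per kb in null and 259 ± 1.62 in IMP1-OE (mean ± SD, n = 2, as for all values with ± here). The heavy chain SLC3A2 stood at 300.2 ± 62.6 CPM per kb in null and 259 ± 27.8 in IMP1-OE, so these carriers did not differ from each other beyond their spread. SLC7A1, the arginine and lysine carrier of most cells, came next, at 105 ± 30.7 CPM per kb in null and 130 ± 6.64 in IMP1-OE. SLC38A5, SLC7A5, SLC38A1 and SLC38A2 followed with means over the 4 libraries of 58.1, 56.6, 53.3 and 52.5 CPM per kb. Their order differed between the groups: in IMP1-OE, SLC38A5 lay above the other 3, at 68.3 ± 0.014 CPM per kb against 53.5 to 56.2, and in null it had the lowest mean of the 4, at 48.0 ± 12.1, within the spread of SLC38A1 and SLC38A2. The 5 members with the highest means over the 4 libraries (SLC1A5, SLC3A2, SLC7A1, SLC38A5 and SLC7A5), which were not the 5 highest in each single library, made up 74.5% to 79.9% of the summed CPM per kb of all 58 in each library. At the other end of the 26 tested members, SLC36A4, of the SLC36 family, averaged 0.469 CPM per kb.

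In the comparison of IMP1-OE with null, SLC6A20, SLC1A4 and SLC6A9 were lower and SLC43A2 was higher at an unadjusted p under 0.05 in edgeR, and no carrier passed after its adjustment. DESeq2 run here called SLC6A20 and SLC1A4. The authors' deposited table called both at the same adjusted p-values, so it is not a separate call. The edgeR quasi-likelihood test called 0 of 26 members and 0 of 12113 genes at an adjusted p under 0.05 (0%). At an unadjusted p under 0.05 it gave 3 of 26 members lower (11.5%), where the share over all genes was 5.84%, and 1 of 26 higher (3.85%), where it was 4.34%. The 3 include SLC6A9, at an edgeR unadjusted p of 0.0497, which passed the low-count filter through the null libraries, where it was high. The share of lower members is therefore not read as a trait of the carriers. The groups did not overlap, with both IMP1-OE libraries lower, for 5 members (SLC6A20, SLC1A4, SLC6A9, SLC1A5 and SLC7A6), which is 19.2% of the members against 21.9% of all genes. Both IMP1-OE libraries were higher for 4 (SLC43A2, SLC38A11, SLC38A5 and SLC6A6), 15.4% against 21.3%. These non-overlap shares are no larger than those of all genes. The median log2 fold change was -0.09 over the members and -0.02 over all tested genes, with 12 members higher and 14 lower.

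**Figure D1:**
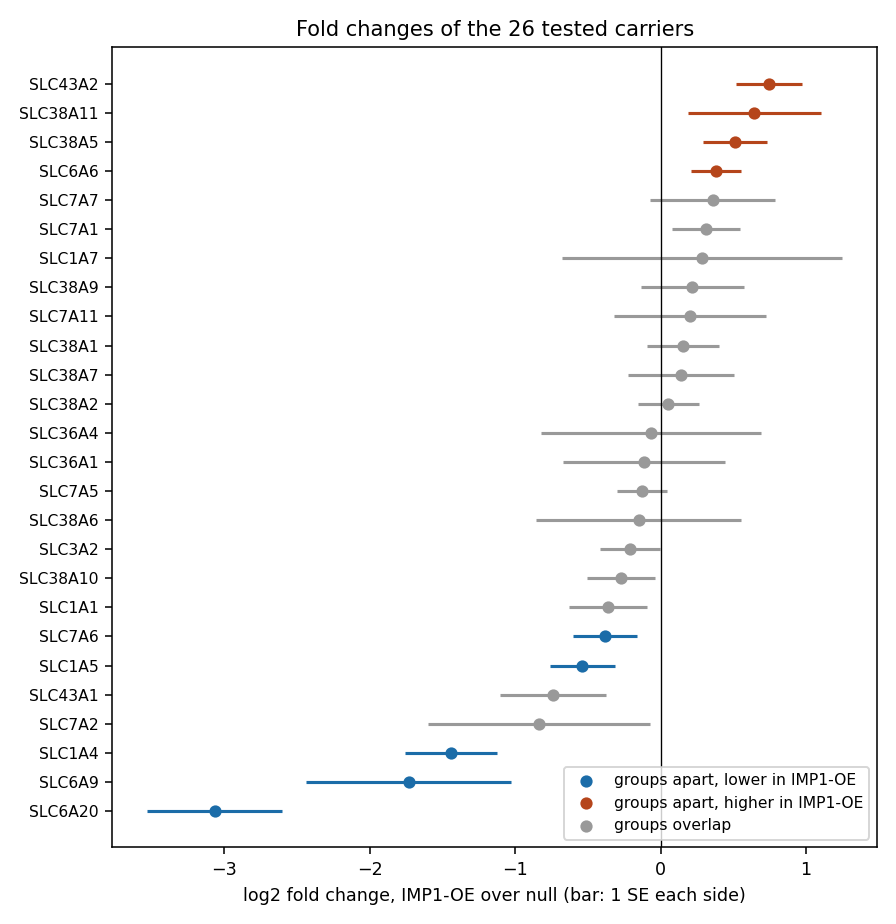
Log2 fold change of IMP1-OE over null (horizontal axis) for each of the 26 tested carriers, as fitted by edgeR with 1 SE on each side, blue or red where the 2 groups of 2 libraries do not overlap and grey where they do. SLC6A20 lies lowest at -3.07, SLC43A2 highest at 0.75, and 17 carriers are grey.

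SLC6A20 carries proline and other imino acids with sodium and chloride. It was at 13.7 and 23.2 CPM in null replicates 1 and 2 and at 1.71 and 2.66 CPM in IMP1-OE replicates 1 and 2, from 140, 212, 18 and 28 counts. Both null libraries lay above both IMP1-OE libraries, by 8.39-fold in the fit. The log2 fold change was -3.07 (SE 0.46, unadjusted p = 5.99e-04, edgeR adjusted p = 0.330). In the authors' deposited table it was -2.85 with an adjusted p of 2.68e-05. That table called 2 of the 29 members to which it gives an adjusted p, both lower in IMP1-OE, where it called 0.849% of all genes lower, and it called 0 members higher, where it called 0.428% of all genes higher. The call for SLC6A20 depended on the libraries: the DESeq2 adjusted p was 0.0633 when null replicate 2 was left out and 0.125 when IMP1-OE replicate 1 was, while the log2 fold change stayed between -3.41 and -2.64 in all 15 alternatives.

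SLC1A4 exchanges alanine, serine and cysteine, and it was the other member called in the authors' deposited table, with a log2 fold change of -1.16 and an adjusted p of 0.0372. It stood at 22.3 and 36.6 CPM in null and at 10.9 and 10.6 CPM in the IMP1-OE libraries. The IMP1-OE libraries were close to each other and both below the lower null library, and the fitted difference was 2.72-fold (log2 fold change -1.44, SE 0.32, unadjusted p = 0.00396, edgeR adjusted p = 0.433). With null replicate 2 left out it was -1.05, and the DESeq2 adjusted p was then 0.527. Leaving out IMP1-OE replicate 1 or 2 ended the DESeq2 call too, with an adjusted p of 1.00 each time, while the log2 fold change was -1.47 and -1.41.

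Its close relative SLC1A5, the glutamine exchanger, was at 864 and 1284 CPM in null and 743 and 737 CPM in IMP1-OE. The groups did not overlap, but null replicate 1 lay nearer to the IMP1-OE libraries than to null replicate 2. The log2 fold change was -0.54 (SE 0.23, edgeR adjusted p = 0.498), -0.80 without null replicate 1 (adjusted p = 0.0205) and -0.22 without null replicate 2. SLC1A1, a carrier of glutamate and cysteine, was at 68.3 CPM in null replicate 1, 113 in null replicate 2 and 72.0 and 68.6 in IMP1-OE, so that null replicate 2 alone was high. SLC1A7, a glutamate carrier of the retina, stayed under 4 CPM in every library.

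SLC6A9 is a glycine carrier. It had 40 and 37 counts in null and 17 and 8 in IMP1-OE, and passed the low-count filter through its null libraries. The null libraries agreed closely, at 3.91 and 4.05 CPM, and the IMP1-OE libraries were at 1.62 and 0.760 CPM. The log2 fold change was -1.73 (SE 0.70, unadjusted p = 0.0497, edgeR adjusted p = 0.490), and the unadjusted p was between 0.0503 and 0.324 in all 15 alternatives. The log2 fold change was -2.37 with IMP1-OE replicate 1 left out and -1.28 with IMP1-OE replicate 2 left out. SLC6A6, the taurine carrier, was at 143 and 130 CPM in null and 188 and 167 CPM in IMP1-OE, 1.30-fold higher with an edgeR adjusted p of 0.512.

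SLC43A2 lets leucine, phenylalanine and methionine pass without an ion gradient. It was at 26.9 and 21.2 CPM in null and 43.6 and 37.2 CPM in IMP1-OE. Both IMP1-OE libraries were higher, by 1.68-fold (log2 fold change 0.75, SE 0.23, unadjusted p = 0.0168, edgeR adjusted p = 0.450). The log2 fold change lay between 0.58 and 0.94 in all 15 alternatives, lowest without null replicate 2 and highest without null replicate 1. Its paralog SLC43A1, named here after its values were seen, was at 73.7 and 38.4 CPM in null and 40.1 and 27.1 CPM in IMP1-OE. Its groups overlapped, with a log2 fold change of -0.74 (edgeR adjusted p = 0.538). DESeq2 gave -1.14 with null replicate 2 left out and -0.18 with null replicate 1 left out.

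**Figure D2:**
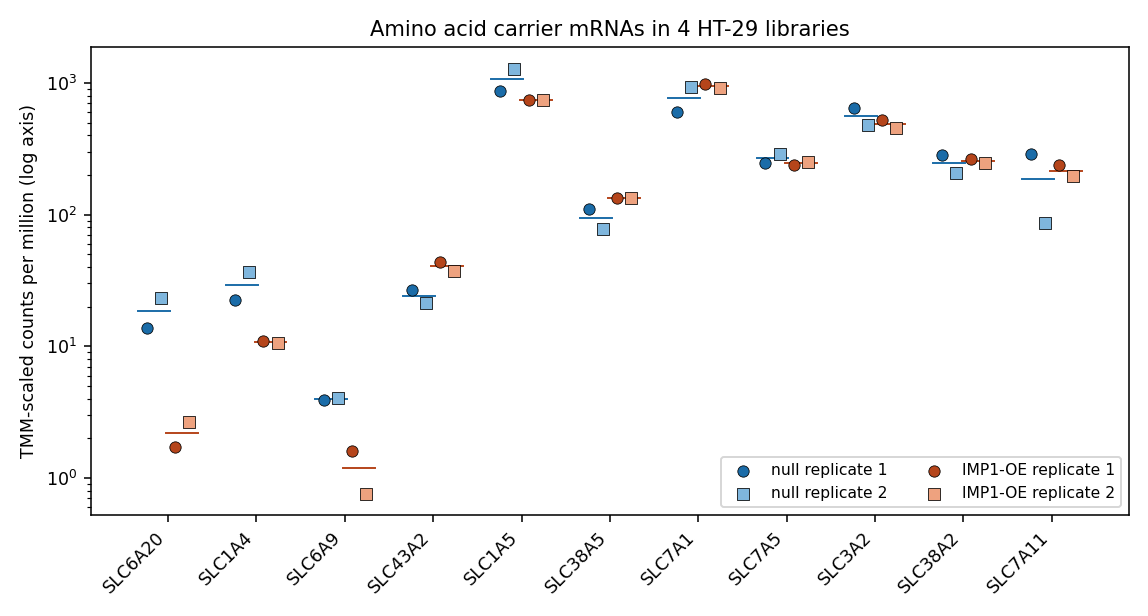
TMM-scaled CPM on a log axis for 11 named carriers, with 1 point per library (blue: null, red: IMP1-OE, circles: replicate 1, squares: replicate 2) and a line at each group mean. SLC6A20 and SLC1A4 show separate groups, while the SLC7A11 point of null replicate 2 (86.7) lies far under the other 3 (196 to 289).

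SLC7A11 imports cystine in exchange for glutamate and feeds glutathione synthesis. It was at 289 CPM in null replicate 1, 86.7 in null replicate 2, 236 in IMP1-OE replicate 1 and 196 in IMP1-OE replicate 2. The null libraries lay on both sides of the IMP1-OE libraries and differed from each other 3.33-fold. With all libraries the log2 fold change was 0.20 (SE 0.52, edgeR adjusted p = 0.925). It was 1.32 without null replicate 1 (adjusted p = 0.0190) and -0.42 without null replicate 2 (adjusted p = 0.340), so a single null library set its direction. CD44, a surface protein known to hold SLC7A11 at the membrane and named here after its values were seen, was at 523, 206, 483 and 437 CPM in null replicates 1 and 2 and IMP1-OE replicates 1 and 2, lowest in the same library.

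The partner of these light chains, the heavy chain SLC3A2, was at 648 and 482 CPM in null and 525 and 451 CPM in IMP1-OE, overlapping groups with a log2 fold change of -0.21 (SE 0.21, edgeR adjusted p = 0.770). SLC7A5, which brings in leucine and other large neutral amino acids, was the most even of the abundant carriers, at 249 and 287 CPM in null and 238 and 253 CPM in IMP1-OE. Its log2 fold change was -0.13 with an SE of 0.17. SLC7A6, an exchanger of arginine and glutamine, was at 34.3 and 45.6 CPM in null and 30.9 and 30.4 CPM in IMP1-OE. SLC7A7, the exchanger of the same kind at the basal side of gut cells, was at 19.4 and 8.32 CPM in null and 18.3 and 17.3 CPM in IMP1-OE, with null replicate 2 low as for SLC7A11. Its log2 fold change of 0.36 became 1.10 without null replicate 1 (unadjusted p = 0.0159, edgeR adjusted p = 0.112) and -0.12 without null replicate 2.

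Per length, SLC3A2 mRNA exceeded the sum of its 6 light chains 3.46-fold and 3.06-fold in null and 3.08-fold and 2.68-fold in IMP1-OE. SLC7A5 made up 55.0% of the light chain sum in null replicate 1, 57.8% and 62.4% in the IMP1-OE libraries and 75.5% in null replicate 2. SLC7A11 made up 30.1%, 27.1%, 22.7% and 10.8% in the same order of libraries. The make-up of the light chains thus differed most between the 2 null libraries. SLC7A8 and SLC7A10, the remaining light chains, had at most 6 counts in any library.

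**Figure D3:**
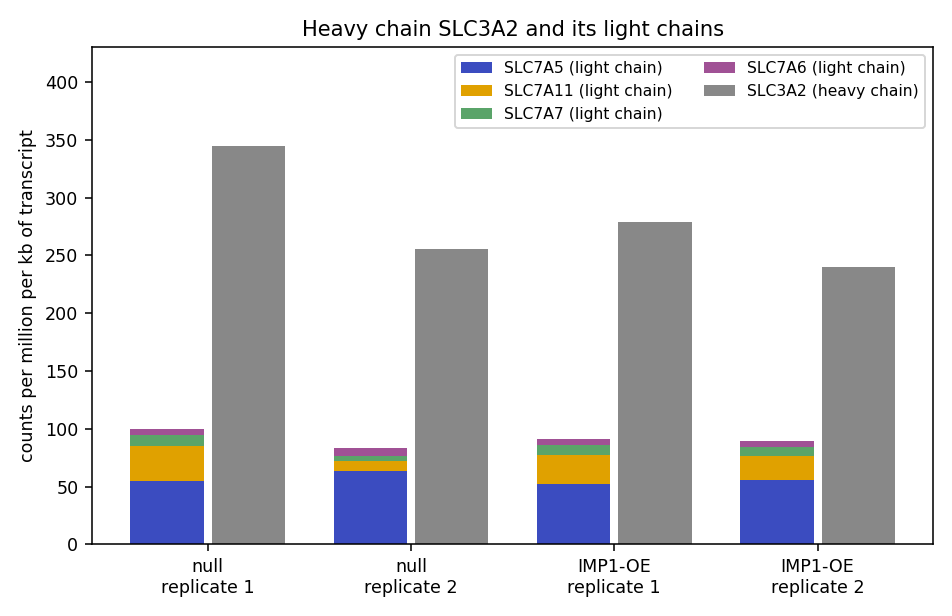
CPM per kb of transcript for the heavy chain SLC3A2 (grey bars) and, stacked, its 4 tested light chains in each of the 4 libraries. SLC3A2 is taller than the stack in every library, and the yellow SLC7A11 part is smallest in null replicate 2, at 9.01 against 20.3 to 30.02.

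SLC7A1, a cationic carrier, was at 607 CPM in null replicate 1 and at 925, 984 and 915 CPM in null replicate 2 and the IMP1-OE libraries. Here null replicate 1 was the low library. The log2 fold change was 0.31 (SE 0.24, edgeR adjusted p = 0.687), 0.65 without null replicate 2 and 0.04 without null replicate 1. DESeq2 called it without null replicate 2 (adjusted p = 7.37e-04). SLC7A2, its paralog, was at 3.72 and 17.1 CPM in null and 3.90 and 7.70 CPM in IMP1-OE. Its log2 fold change of -0.84 became -1.56 without null replicate 1 (unadjusted p = 0.0195, edgeR adjusted p = 0.123) and 0.64 without null replicate 2.

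Among the sodium-coupled SLC38 carriers, SLC38A2, which rises when cells lack amino acids, was at 285 and 207 CPM in null and 264 and 246 CPM in IMP1-OE. Both IMP1-OE libraries lay between the null libraries, and the log2 fold change was 0.05 (SE 0.21). SLC38A1 showed the same order, at 196 and 125 CPM in null and 176 and 180 CPM in IMP1-OE. SLC38A5, a glutamine carrier that also works in reverse, was at 111 and 77.6 CPM in null and 134 CPM in both IMP1-OE libraries, 1.42-fold higher. Its edgeR adjusted p was 0.505. The log2 fold change of 0.51 became 0.79 without null replicate 1 and 0.27 without null replicate 2. SLC38A9, the lysosomal arginine sensor of mTORC1, was at 8.998 and 15.2 CPM in null and 14.0 and 14.2 CPM in IMP1-OE. Of the other 4 tested members of the family, SLC38A11 was 1.56-fold higher from 33 to 82 counts, and SLC38A6, SLC38A7 and SLC38A10 had overlapping groups, with log2 fold changes of -0.15, 0.14 and -0.28. The lysosomal carriers SLC36A1 and SLC36A4 stayed under 5 CPM in every library, with log2 fold changes of -0.11 and -0.07.

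The 2 libraries of a group were set against each other for every tested carrier. Between the null libraries the median size of the log2 difference was 0.59 over the members and 0.39 over all genes, and between the IMP1-OE libraries it was 0.22 and 0.23. A difference of more than 1 log2 unit between the null libraries was found for 3 members, SLC7A11 (-1.73, null replicate 2 minus null replicate 1), SLC7A7 (-1.20) and SLC7A2 (2.14), which is 11.5% of the members against 16.8% of all genes. Between the IMP1-OE libraries it was found for another 3, SLC1A7, SLC36A4 and SLC38A6, all with at most 54 counts in a library, against 8.14% of all genes. In all, 14 of 26 members and 6029 of 12113 genes were lower in null replicate 2 than in null replicate 1. SLC1A1, SLC1A4, SLC1A5 and SLC7A1 were higher there, by 0.57 to 0.72 log2 units, as was SLC6A20, by 0.75. The part that the interferon-stimulated genes of null replicate 2, or the intestinal markers of null replicate 1, have in these differences was not tested.

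**Figure D4:**
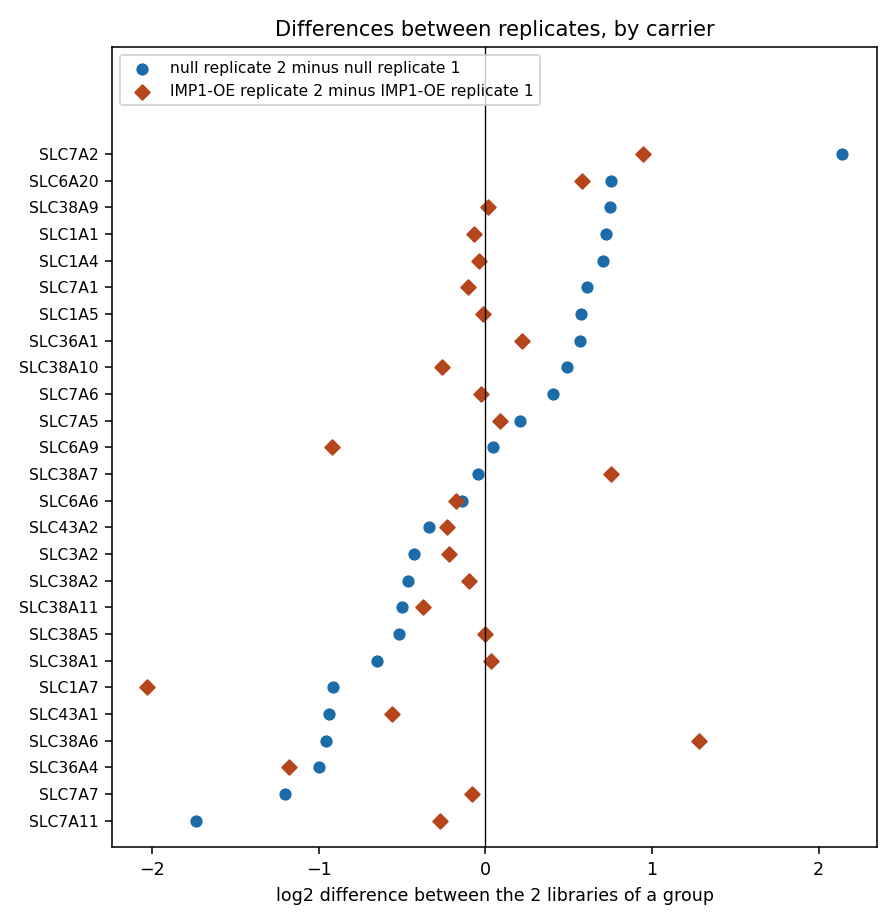
Log2 difference between the 2 libraries of a group (horizontal axis, replicate 2 minus replicate 1) for each of the 26 tested carriers, with null as blue circles and IMP1-OE as red diamonds. Blue circles run from -1.73 for SLC7A11 to 2.14 for SLC7A2, and red diamonds run from -2.03 for SLC1A7 to 1.28 for SLC38A6.

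The amino acid response element was searched for, as TGATGNAAN on both strands, in RefSeq promoter windows (GRCh38.p14, 250 bases before to 50 after a gene's start), which matched 43 of the 58 members. The motif stood in 6 of 65 member windows (9.23%), each of a different gene (the sixth, SLC1A3, was not tested). It stood in 3.61% of all 35116 windows and in 2.71% of the windows of genes in the deposited table. For windows of tested members the share was 12.8%, against 2.03% for windows of tested genes. A match is a description of letters and not a measured site. The 5 tested members with a match are shown as 30 bases 5′ to 3′ on the gene's strand, with the motif in capitals, because they include SLC1A4 and the 3 most abundant carriers.

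SLC1A4: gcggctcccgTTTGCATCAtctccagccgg
SLC1A5: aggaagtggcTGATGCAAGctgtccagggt
SLC7A1: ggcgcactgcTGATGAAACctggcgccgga
SLC3A2: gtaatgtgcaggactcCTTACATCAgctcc
SLC38A1: cagacccgaaTGATGAAAAgggatcagcta

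In SLC1A4 (chr2:64989381-64989410, plus strand) the motif lies on the opposite strand and its first base as printed is 8 bases before the start. In SLC1A5 (chr19:46784892-46784921, minus strand) it begins 97 bases before the start. In SLC38A1 (chr12:46266501-46266530, minus strand) it begins 4 bases before the start, in SLC7A1 (chr13:29595662-29595691, minus strand) at base 8 after it, and in SLC3A2 (chr11:62881719-62881748, plus strand, motif on the opposite strand) at base 37 after it. For comparison, the same search found the motif in ASNS, the asparagine synthetase gene whose element is a textbook example, 68 bases before the start.

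ASNS: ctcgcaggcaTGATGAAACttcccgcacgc

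The carriers with the motif did not share a direction: SLC1A4 and SLC1A5 had both IMP1-OE libraries below both null libraries, at 2.72-fold and 1.45-fold lower, whereas SLC7A1, SLC3A2 and SLC38A1 had overlapping groups, with log2 fold changes of 0.31, -0.21 and 0.16.

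Genes of amino acid synthesis and the ATF4 response mostly lay lower in IMP1-OE. Of 30 tested, 28 had a negative log2 fold change, with a median of -0.61, and 12 were lower (40.0%, against 5.84% of all genes) and 0 higher at an unadjusted p under 0.05. With 1 library left out the median lay between -0.72 and -0.47, and between 25 and 28 of the 30 had a negative log2 fold change. The number at an unadjusted p under 0.05 changed with the library left out. PCK2, the mitochondrial enzyme that makes phosphoenolpyruvate, averaged 46.4 ± 4.75 CPM in the IMP1-OE group and 129.6 ± 19.1 CPM in the null group. ASNS was at 182 ± 42.6 CPM against 399.8 ± 109, the serine pathway gene PSAT1 at 121 ± 8.77 against 244 ± 73.5, and PSPH, which makes serine, at 45.7 ± 2.86 against 74.7 ± 5.25. CHAC1, which breaks down glutathione, was at 3.38 ± 0.737 CPM against 15.1 ± 1.21. The edgeR test called 0 of these genes after adjustment, and 4 of them passed in the authors' deposited table. In this list 21 of 30 genes were lower in null replicate 2 than in null replicate 1, and the median log2 difference was -0.43. This list and those below were chosen with earlier results of these data known. Their shares beside those of all genes are therefore descriptions and not tests. The difference between the list of amino acid synthesis and the ATF4 response and the carriers was not tested.

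Genes that sense amino acids for mTORC1, the growth-control kinase complex, had a median log2 fold change of -0.15, and of 35 tested 4 were lower (11.4%, against 5.84% of all genes) and 1 higher (2.86% against 4.34%) at an unadjusted p under 0.05. With 1 library left out the median lay between -0.24 and -0.03. SESN2, and CHAC1 of the partners below, are also counted in the ATF4 response list above. FNIP1, a regulator of the lysosomal RAG GTPases, was at 24.5 ± 1.93 CPM in IMP1-OE against 45.6 ± 2.67 in null, RRAGC at 7.23 ± 0.678 against 16.7 ± 7.09, RRAGA at 64.7 ± 3.55 against 92.4 ± 11.3 and the leucine sensor gene SESN2 at 10.7 ± 1.76 against 23.7 ± 7.91. CASTOR2, of the arginine sensor family, was the higher one, at 39.6 ± 6.56 against 25.0 ± 1.33. Of 19 tested genes of a list of carriers of other families, 0 were lower and 1 (5.26%, against 4.34% of all genes) was higher at that level. It was SLC17A9, known as a vesicular carrier of nucleotides rather than amino acids, at 95.0 ± 1.13 against 66.4 ± 2.11. Of 17 tested partners and regulators of the carriers, CHAC1 was lower (5.88%) and MYC, a transcription factor known to raise glutamine carriers, was higher (5.88%), at 377 ± 13.2 against 270.0 ± 40.7. The edgeR test called 0 genes of these 3 lists after adjustment.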

How the data were processed

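The authors deposited estimated counts (kallisto's column names, per the file headers), whole numbers for 1 transcript of each of 20322 genes. The submitters' processing notes name, without roles, kallisto 0.46.2, HISAT2 2.1.0, fastp 0.21, cutadapt 3.5 and DESeq. Build and annotation: not given in the sources used here. Per the labels' protocols, fragments of 18 to 50 nt were sequenced after rRNA removal. No source states the use of molecular identifiers, and floors cover counting error only. Near-identical copies such as pseudogenes of SLC7A5 can take or give fragments. The authors' deposited table gives log2 fold changes and adjusted p-values (DESeq, per the submitters' processing notes); for SLC6A20 its log2 value of -2.85 lies nearer 0 than the -3.07 of DESeq2 run here, at the same adjusted p of 2.68e-05, so its log2 values are not on one scale with those fitted here. A further 2 sample names without a matching label were not analysed here.

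All genes were fitted with edgeR 4.0.16 (R 4.3.3; TMM, default filter, quasi-likelihood F test, IMP1-OE against null, Benjamini-Hochberg adjustment over 12113 genes, threshold 0.05), which was checked on simulated counts. SEs are the log2 fold change over the root of F. CPM values are TMM-scaled. An exact permutation test of 2 against 2 libraries cannot go below p = 0.333. DESeq2 1.42.0, limma 3.58.1 (voom), other scalings, no filter, a replicate block and the omission of ARSI or of each library were alternatives, and DESeq2 without each library, and the related lists without each library, were added after the data were seen. Named carriers are those at an unadjusted p under 0.05, those called by the authors, SLC6A20, SLC7A11, SLC3A1, SLC3A2, SLC7A5, SLC1A5, SLC38A2 and the 5 highest per length. Other carriers with values were named after these were seen. From each related list up to 5 genes at an unadjusted p under 0.05, or called by the authors, are named. Members and lists were chosen with earlier results of these data known.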

Additional observations from a re-analysis of the deposited data

How the results depend on the processing

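Of 12113 genes, edgeR called 0, with 1233 at an unadjusted p under 0.05. It called 22 with no low-count filter, 15 with the replicate block and 0 to 783 with 1 library left out. DESeq2 called 164, and it called 1025 without null replicate 1, 263 without null replicate 2, 27 without IMP1-OE replicate 1 and 33 without IMP1-OE replicate 2. Limma-voom called 1. Of the members, edgeR called 0, and 0 to 5 with 1 library left out, the 5 coming without null replicate 1 (SLC6A20, SLC1A4, SLC1A5, SLC38A5 and SLC7A11). DESeq2 called 2, and 5, 2, 0 and 1 with those libraries left out in that order. The 2 without null replicate 2 were SLC7A1 and SLC43A1, and the 1 without IMP1-OE replicate 2 was SLC6A20. Fits with 1 library left out leave a single library in a group, so these member counts are not read as a trait of the carriers. The cause of the differences between settings was not tested.

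Members lower at an unadjusted p numbered 2 to 7 with 1 library left out, and higher ones 0 to 6, 2 with limma-voom and 2 with the replicate block. Both upper ends came without null replicate 1. The shares of all genes lower and higher at that level were also highest in that fit, and above those with all libraries. That fit leaves a single null library, and whether the members rose more than all genes was not tested. The rise is not read as a trait of the carriers. The labels do not say what a shared replicate number marks, and deviations of same-numbered libraries correlated at 0.12 over genes. Directions turned for SLC3A2 (-0.41 to 0.020 with 1 library left out in edgeR, and 0.033 with DESeq2 without null replicate 1), SLC38A2 (-0.16 to 0.31, and -0.16 and -7.38e-04 with DESeq2 without null replicate 2 and IMP1-OE replicate 1) and SLC7A11 (-0.42 to 1.32, and -0.42 with DESeq2 without null replicate 2). The other 8 tested carriers that were named by rule kept their direction in all 15 alternatives. Carriers outside that rule also turned, among them SLC7A2, SLC7A7, SLC38A1 and SLC1A1 without null replicate 2. SLC38A9 turned without null replicate 1. SLC6A9 rests on at most 40 counts in any library.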
